A study of Mus musculus with 32 samples.

Results

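The cytochrome P450 family 4 of the mouse was followed through 10 of its genes in the livers of adult mice that had lost Gclc, which encodes the catalytic part of glutamate-cysteine ligase and so is needed to make glutathione. They were the Cyp4a genes Cyp4a10, Cyp4a14, Cyp4a12a, Cyp4a12b, Cyp4a31 and Cyp4a32, the Cyp4f genes Cyp4f13, Cyp4f14 and Cyp4f15, and Cyp4v3. They were chosen by symbol, as 10 of the 20821 symbols in the deposited table, and all 10 reached the mean of at least 1 TPM (a level per transcript length on a scale with a fixed library total) that left 11284 genes to be tested. Gclc KO mice carried floxed Gclc alleles (Gclc f/f) and Rosa26-CreERT2, a tamoxifen-dependent recombinase expressed in the whole body. Gclc WT mice were Gclc f/f without CreERT2. Mice of both genotypes were at least 12 weeks old and had been given 150 mg/kg tamoxifen into the peritoneum for 5 days according to the sample labels, and liver was taken 14 days later. The methods of the study give a slightly higher dose. No tamoxifen-treated mouse with CreERT2 and intact Gclc was sequenced here, so the activity of the recombinase and the loss of Gclc cannot be told apart, and because deletion was not limited to the liver, effects that started in other organs cannot be told apart from those that started in hepatocytes. The study reports that whole-body Gclc KO mice lost much weight without eating less. The labels do not give the weights of the mice sequenced here, and the part of weight loss in the results was not tested. There were 4 mice per genotype, each measured in 4 libraries that were averaged.

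Enzymes of this family sit in the endoplasmic reticulum and add a hydroxyl group to the far (omega) end of a fatty acid chain, with electrons passed on from NADPH by P450 reductase or from cytochrome b5. The hydroxylated acid is then oxidised by alcohol and aldehyde dehydrogenases to a dicarboxylic acid, which is shortened in peroxisomes. In liver the pathway is known for disposing of fatty acids during fasting, for the response of Cyp4a10 and Cyp4a14 to PPAR-alpha, the nuclear receptor that senses fatty acids, and for inactivating signalling lipids such as leukotriene B4, a substrate of Cyp4f enzymes.

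According to the RefSeq annotation of GRCm38.p6, the Cyp4a genes lie together on chromosome 4, the Cyp4f genes on chromosome 17 and Cyp4v3 on chromosome 8. Several are close copies. In coding sequence Cyp4a12a and Cyp4a12b were 98.5% identical, Cyp4a10 and Cyp4a32 97.2%, Cyp4a10 and Cyp4a31 96.6%, and Cyp4a31 and Cyp4a32 96.0%, so that reads of these genes may have been divided between them uncertainly and their separate values are uncertain. Cyp4a14 was 75.6% identical to Cyp4a10. Cyp4f14 was 80.2% identical to Cyp4f15 and 77.4% to Cyp4f13.

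RefSeq promoter windows (250 bases before to 50 after a start site, GRCm38.p6) were matched for 5 of the 10 genes, Cyp4a32, Cyp4f13, Cyp4f14, Cyp4f15 and Cyp4v3. The 3 Cyp4f windows are shown because these genes share a cluster but differed in the data, with Cyp4f14 and Cyp4f15 lower in Gclc KO livers and Cyp4f13 not past the test. Of the 4 windows of Cyp4f14, the one that aligned best with Cyp4f15 is given, at chr17:32917280-32917579 on the minus strand. The Cyp4f15 window is chr17:32685409-32685708 on the plus strand and the Cyp4f13 window chr17:32947312-32947611 on the minus strand. Capitals mark the longest unbroken runs that Cyp4f15 shares with each of the others.
Cyp4f14: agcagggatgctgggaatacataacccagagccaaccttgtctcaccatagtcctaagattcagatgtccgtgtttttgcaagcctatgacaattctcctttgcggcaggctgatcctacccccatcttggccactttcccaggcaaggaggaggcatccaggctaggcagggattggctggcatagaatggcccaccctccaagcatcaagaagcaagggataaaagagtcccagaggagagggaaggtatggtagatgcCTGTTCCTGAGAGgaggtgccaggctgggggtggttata
Cyp4f15: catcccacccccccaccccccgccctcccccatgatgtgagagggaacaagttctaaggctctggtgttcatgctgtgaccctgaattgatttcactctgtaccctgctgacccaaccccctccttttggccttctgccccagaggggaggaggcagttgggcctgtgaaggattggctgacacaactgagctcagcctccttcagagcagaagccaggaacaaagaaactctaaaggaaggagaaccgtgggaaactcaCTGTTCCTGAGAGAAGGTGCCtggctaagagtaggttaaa
Cyp4f13: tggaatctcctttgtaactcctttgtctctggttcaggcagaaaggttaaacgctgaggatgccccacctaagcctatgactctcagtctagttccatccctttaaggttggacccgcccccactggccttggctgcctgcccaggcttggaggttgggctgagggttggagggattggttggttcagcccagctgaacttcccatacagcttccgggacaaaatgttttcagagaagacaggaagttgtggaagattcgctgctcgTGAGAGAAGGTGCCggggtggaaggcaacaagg

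The run shared by Cyp4f14 and Cyp4f15 is 13 bases long and begins at base 12 and base 11 after their start sites, counted from 1 at the start site. Of 32851 promoter windows 5 hold it, and 4 of these are windows of Cyp4f14 and Cyp4f15 themselves, in which it was found. The run shared by Cyp4f15 and Cyp4f13 is 14 bases long, begins at base 18 in both and overlaps the other run in Cyp4f15, so that the downstream end of the Cyp4f15 window matches each neighbour over a different stretch. Over the aligned parts, Cyp4f14 and Cyp4f15 were 61.9% identical, Cyp4f15 and Cyp4f13 61.7%, and Cyp4f14 and Cyp4f13 62.4%. The longest run shared by Cyp4f14 and Cyp4f13, not marked here, is 11 bases long.

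Motifs were searched on both strands in all 8 windows. The nuclear receptor hexamer AGGTCA was in 0 of the 8 and in 16.3% of all promoter windows, and its direct repeat AGGTCANAGGTCA, the PPAR element, was in 0 of the 8 and in 0.0396% of all. The hexamer is part of the repeat. The C/EBP core TTGCNNAA was in all 4 overlapping windows of Cyp4f14 and in 10.8% of all windows. The antioxidant response element core TGACNNNGC was in 1 Cyp4f14 window, at base -127 from its start site, and in 12.4% of all. The STAT5 site TTCNNNGAA was in the Cyp4f13 window at base -22 and in 8.30% of all, and TATAAA was in the Cyp4a32 window at base -113 and in 13.6% of all. These are matches of letters, and binding was not measured.

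Gclc itself was at 26.9, 16.1, 18.6 and 26.8 TPM in Gclc KO mice 1 to 4, against 82.3, 114.1, 77.8 and 138 TPM in Gclc WT mice 1 to 4. Labels give no sex. Xist, which is transcribed from the inactive X chromosome, was at 30.2 and 22.8 TPM in Gclc KO 2 and 3 and at 25.7 TPM in Gclc WT 3, with no more than 0.0225 TPM elsewhere, and Ddx3y of the Y chromosome was at 0 in the same 3 mice. Gclc WT 3 also stood apart from the other Gclc WT mice in acute phase genes. The TPM of these genes summed to 80377, 211454, 149611 and 50094 in Gclc KO mice 1 to 4. The sum was 83517 in Gclc WT 3 and at most 14455 in the other Gclc WT mice. In each genotype the mice with Xist thus had the highest sums. Exocrine pancreas genes summed to at most 18.9 TPM in the Gclc KO mice and, of the Gclc WT mice, to 351 TPM in number 1 and 14.5 to 37.3 TPM in the others. The 10 hepatocyte markers were all detected and summed to 101309 to 177432 TPM in Gclc KO and 90729 to 126918 TPM in Gclc WT mice. Of them 2 were lower and 1 higher by limma's adjusted p, beside 8.61% and 12.8% of all genes tested. The 10 Kupffer cell markers summed to 864 to 1448 TPM in Gclc KO and 300.5 to 823 TPM in Gclc WT mice (0 lower, 5 higher). The part of these differences between mice in the Cyp4 results was not tested. All 9 kidney tubule markers were under 1 TPM in every mouse, which bears on the Cyp4a genes because kidney also expresses them. In whole liver, fewer cells of a type and less RNA per cell cannot be told apart.

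Cyp4 transcripts were lower or not called, and none was called higher, in Gclc KO livers. Of the 10 genes, 4 passed limma's test with Benjamini-Hochberg adjustment over all genes as lower (Cyp4f14, Cyp4f15, Cyp4v3 and Cyp4a32) and 0 as higher, where 8.61% of the 11284 genes tested were lower and 12.8% higher (21.4% in either direction). At an unadjusted p under 0.05 in limma, 6 were lower and 0 higher, where 13.8% of all genes tested were lower and 22.5% higher. The same 4 genes were those whose genotypes did not overlap, beside 10.2% of all genes tested that lay without overlap lower in Gclc KO mice (14.5% higher and 24.7% in either direction). The median difference (Gclc KO minus Gclc WT) of the 10 genes was -1.002 on the log2(TPM + 1) scale and that of all genes tested 0.09. Fold changes on this scale understate the change of low genes, and sequencing depth is unknown because TPM do not keep it.

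**Figure D1:**
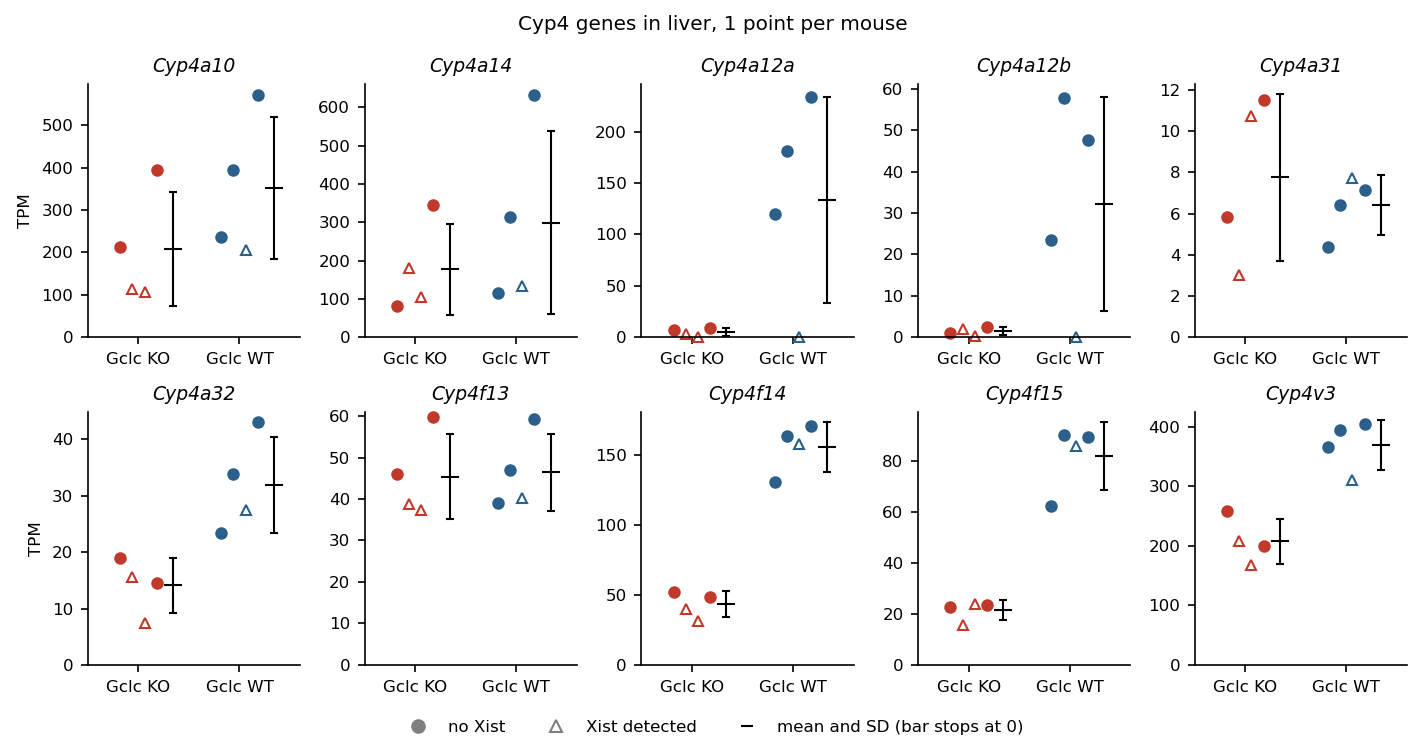
Level of each Cyp4 gene in TPM, with 1 point per mouse (mean of 4 libraries), Gclc KO in red and Gclc WT in blue, open triangles for mice with Xist and bars for mean ± SD (n = 4 each). The genotypes do not overlap for Cyp4a32, Cyp4f14, Cyp4f15 and Cyp4v3, and for Cyp4a12a and Cyp4a12b the open triangle of Gclc WT 3 lies at the bottom with the Gclc KO mice.

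Cyp4f14 hydroxylates leukotriene B4 and is the Cyp4f gene with the highest level in Gclc WT livers. Cyp4f14 was at 52.2, 40.2, 31.5 and 48.8 TPM in Gclc KO mice 1 to 4, against 130.5, 164, 158 and 171 TPM in Gclc WT mice 1 to 4. Every Gclc KO mouse lay below every Gclc WT mouse, and so did each of the 16 Gclc KO libraries below each of the 16 Gclc WT libraries. It was 3.59-fold lower in Gclc KO livers (log2 difference -1.84, SE 0.17, limma adjusted p = 0.000338). By adjusted p it ranked 30 among all genes tested.

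Cyp4f15, of the same cluster and also a hydroxylase of leukotrienes and fatty acids, was lower as well. It was at 22.8, 15.7, 24.0 and 23.5 TPM in Gclc KO mice 1 to 4, against 62.3, 90.03, 85.9 and 89.3 TPM in Gclc WT mice 1 to 4. The groups were again apart in all 16 libraries against 16, although Gclc KO 2 and Gclc WT 1 were each the lowest of their genotype by a clear gap. The fall was 3.69-fold (log2 difference -1.88, SE 0.17, limma adjusted p = 0.000338).

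Cyp4f13 is the third Cyp4f enzyme of this set and less is known of its substrates. It was at 45.9, 38.7, 37.3 and 59.7 TPM in Gclc KO mice 1 to 4, against 39.1, 46.9, 40.3 and 59.2 TPM in Gclc WT mice 1 to 4. The ranges overlapped almost fully and replicate 4 was the highest in both genotypes. The difference was -0.04 on the log2 scale with a 95% interval of -0.44 to 0.37 (SE 0.18, limma adjusted p = 0.903).

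The make-up of Cyp4f transcripts differed between genotypes without overlap, given as a description with no test. Cyp4f13 held 41.1 ± 3.02% of the TPM summed over Cyp4f13, Cyp4f14 and Cyp4f15 in Gclc KO mice and 16.3 ± 1.85% in Gclc WT mice (SD, n = 4 each). The level of Cyp4f14 was 0.818 to 1.14 times that of Cyp4f13 in Gclc KO mice and 2.89 to 3.92 times in Gclc WT mice, so Cyp4f14 and Cyp4f13 were at like levels in Gclc KO livers and Cyp4f14 was the main Cyp4f transcript in Gclc WT livers. Between the genes that fell, the ratio of Cyp4f15 to Cyp4f14 was 0.517 ± 0.166 in Gclc KO and 0.523 ± 0.0329 in Gclc WT mice. The Cyp4f sum was 121, 94.6, 92.8 and 132 TPM in Gclc KO mice 1 to 4, against 232, 300.6, 284 and 319 TPM in Gclc WT mice 1 to 4, without overlap.

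Genes that lie next to each other in the cluster differed. In RefSeq order Cyp4f15 is followed by the zinc finger genes Zfp871, Zfp811, Zfp799 and Zfp870 and then by Cyp4f14 and Cyp4f13. Zfp871 was lower (log2 difference -0.43, limma adjusted p = 0.0193), Zfp799 and Zfp870 differed by -0.07 and 0.08 and were not called, and Zfp811 was too low to be tested. The other Cyp4f genes of the region had few transcripts. Cyp4f16 averaged 5.05 ± 1.70 TPM in Gclc KO and 2.44 ± 2.15 TPM in Gclc WT mice, Cyp4f17 averaged 4.11 ± 0.689 TPM in Gclc KO and 3.51 ± 0.725 TPM in Gclc WT mice, and neither was called (limma adjusted p = 0.0922 and 0.427).

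**Figure D2:**
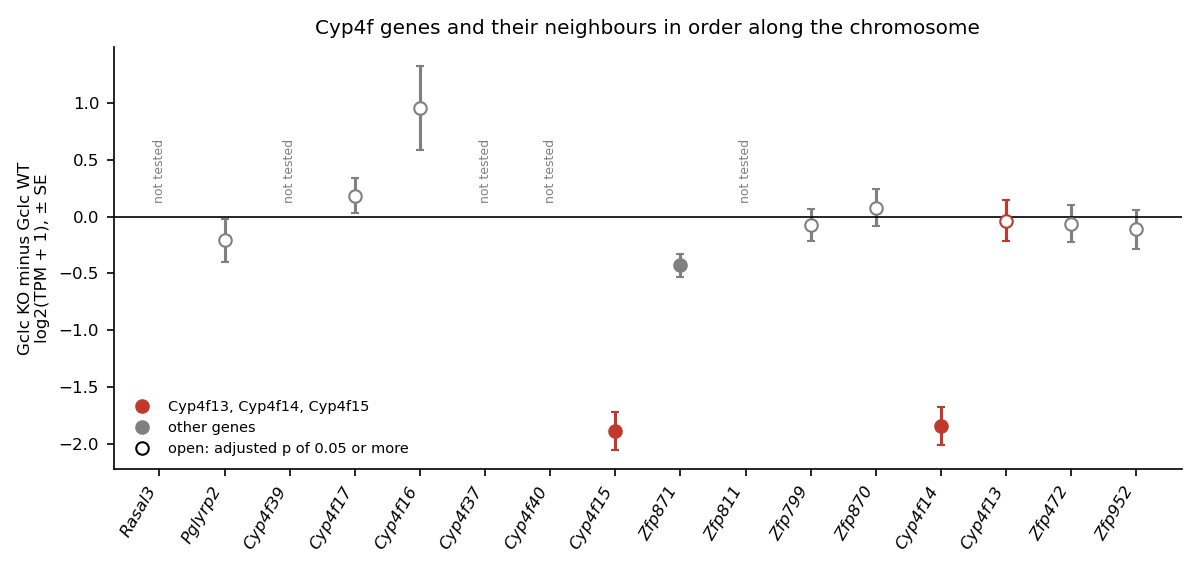
Difference between genotypes (Gclc KO minus Gclc WT, log2(TPM + 1), ± SE) for genes in and around the Cyp4f cluster, in RefSeq order and not to distance. Cyp4f13, Cyp4f14 and Cyp4f15 are red and all other genes grey, including Cyp4f16 and Cyp4f17, with filled points for a limma adjusted p under 0.05. Cyp4f15 (-1.88) and Cyp4f14 (-1.84) stand below the rest, and Cyp4f13 (-0.04), next to Cyp4f14, lies at 0.

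Cyp4v3, the mouse counterpart of human CYP4V2, the gene mutated in Bietti crystalline corneoretinal dystrophy, was the most abundant of the 10 by mean in either genotype. It was at 258, 208, 167 and 199 TPM in Gclc KO mice 1 to 4, against 367, 395, 310 and 405 TPM in Gclc WT mice 1 to 4. No mouse and none of the 16 libraries per genotype overlapped, and the lowest Gclc WT value was that of Gclc WT 3. Cyp4v3 was 1.78-fold lower in Gclc KO livers (log2 difference -0.84, SE 0.15, limma adjusted p = 0.00642). Of its neighbours, the plasma kallikrein gene Klkb1 on one side (log2 difference -1.08, limma adjusted p = 0.00482) and Fam149a on the other (log2 difference -0.99, limma adjusted p = 0.00398) were lower too, and F11, the gene for coagulation factor XI, differed by 0.02 (limma adjusted p = 0.917).

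Cyp4a12a and Cyp4a12b encode the main mouse enzymes that turn arachidonic acid into 20-HETE, a vasoactive lipid, and are known as male-biased. Cyp4a12a was at 7.10, 3.21, 0 and 9.28 TPM in Gclc KO mice 1 to 4, against 119.9, 181, 0.148 and 234 TPM in Gclc WT mice 1 to 4. Cyp4a12b was at 0.948, 1.93, 0.258 and 2.41 TPM in Gclc KO mice 1 to 4, against 23.6, 57.8, 0 and 47.8 TPM in Gclc WT mice 1 to 4. In both genes 3 Gclc WT mice were far above all Gclc KO mice and the other, Gclc WT 3, the only Gclc WT mouse with Xist, was at or near 0.

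Over all 8 mice neither gene passed the test. The log2 difference was -3.51 for Cyp4a12a (SE 1.56, 95% interval -7.02 to -0.0044, limma adjusted p = 0.137) and -2.87 for Cyp4a12b (SE 1.12, 95% interval -5.38 to -0.36, limma adjusted p = 0.0958). Among the 5 mice without Xist, Cyp4a12a was at 7.10 and 9.28 TPM in 2 Gclc KO mice and at 119.9 to 234 TPM in 3 Gclc WT mice, the lowest Gclc WT value being 12.9 times the highest Gclc KO value. In that smaller fit Cyp4a12a was lower by -4.24 (SE 0.28, limma adjusted p = 0.000561) and Cyp4a12b by -4.00 (SE 0.41, limma adjusted p = 0.00248). Without Gclc WT 3 alone the values were -5.32 (limma adjusted p = 0.00121) and -4.22 (limma adjusted p = 0.000235). That fit leaves out the Gclc WT mouse at or near 0. In it no Gclc WT mouse had Xist while 2 Gclc KO mice did, so genotype and Xist status are mixed in these values.

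Whether the genotype difference itself depended on Xist was tested by an interaction term, which rests on the single Gclc WT mouse with Xist. In that mouse Cyp4a12a was at 0.148 TPM and Cyp4a12b at 0 TPM, so a fall in Gclc KO mice with Xist could not have been seen. For these 2 genes the term therefore cannot decide the question. The difference was 0.84 with Xist and -4.24 without it for Cyp4a12a (interaction 5.08, SE 0.90, limma adjusted p = 0.118), and 0.94 with and -4.00 without it for Cyp4a12b (interaction 4.94, SE 0.79, limma adjusted p = 0.0746). None of the 10 genes passed this test at an adjusted p of 0.05, where 0.266% of all genes tested passed, and 2 had an unadjusted p under 0.05, where 11.3% of all genes tested did. Xist-bearing mice made up 2 of 4 Gclc KO and 1 of 4 Gclc WT mice, and the part of sex in the difference over all 8 mice cannot be told apart from the acute phase values that set Gclc WT 3 apart.

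Cyp4a10 and Cyp4a14 are the classic PPAR-alpha-inducible omega-hydroxylases of lauric and longer fatty acids. Cyp4a10 was at 212, 115, 107 and 396 TPM in Gclc KO mice 1 to 4, against 236, 395, 206 and 571 TPM in Gclc WT mice 1 to 4. Cyp4a14 was at 82.6, 179, 104 and 344 TPM in Gclc KO mice 1 to 4, against 116, 315, 134 and 631 TPM in Gclc WT mice 1 to 4. Mice of 1 genotype differed several-fold from each other, the highest value of each genotype was in replicate 4, and the genotypes overlapped for both genes. In each gene every Gclc KO mouse lay below the Gclc WT mouse of its replicate number. The labels do not say whether such mice were paired, and the test here took them as unpaired. The log2 difference was -0.85 for Cyp4a10 (SE 0.45, 95% interval -1.86 to 0.16, limma adjusted p = 0.205) and -0.63 for Cyp4a14 (SE 0.58, 95% interval -1.94 to 0.68, limma adjusted p = 0.468), so a fall of more than 3-fold and no fall at all both lay within the intervals.

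This spread lay between animals and not between libraries. Libraries made from 1 mouse had a median SD of 0.052 for Cyp4a10 and 0.047 for Cyp4a14 (log2), while the SD among mice was 0.88 in Gclc KO and 0.68 in Gclc WT for Cyp4a10, and 0.91 in Gclc KO and 1.14 in Gclc WT for Cyp4a14. For all genes tested the median SD among mice was 0.21 in Gclc KO and 0.20 in Gclc WT, and the median among libraries 0.17. Cyp4f14, in contrast, had a mouse SD of 0.32 in Gclc KO and 0.17 in Gclc WT, and Cyp4v3 0.26 in Gclc KO and 0.17 in Gclc WT. Cyp4a14 was 0.390 to 1.56 times Cyp4a10 in Gclc KO mice and 0.491 to 1.10 times in Gclc WT mice, so the balance of this pair overlapped as well.

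Cyp4a32 and Cyp4a31 are close copies of Cyp4a10 whose own substrates are little described. Cyp4a32 was at 18.9, 15.6, 7.41 and 14.5 TPM in Gclc KO mice 1 to 4, against 23.3, 33.8, 27.5 and 43.0 TPM in Gclc WT mice 1 to 4. The genotypes did not overlap, and Cyp4a32 was 2.23-fold lower in Gclc KO livers (log2 difference -1.16, SE 0.27, limma adjusted p = 0.0174). This call was lost without Gclc WT 2 (log2 difference -1.12, limma adjusted p = 0.0535) and in the batch 2 libraries alone (log2 difference -1.17, limma adjusted p = 0.0641). Its level was 0.0367 to 0.136 times that of Cyp4a10 in Gclc KO and 0.0753 to 0.133 times in Gclc WT mice, and the part of reads shared with Cyp4a10 in its difference was not tested.

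Cyp4a31 was at 5.84, 3.00, 10.7 and 11.5 TPM in Gclc KO mice 1 to 4, against 4.37, 6.41, 7.75 and 7.16 TPM in Gclc WT mice 1 to 4. The Gclc KO mice held both the lowest and the highest values. The log2 difference was 0.12 (SE 0.34, 95% interval -0.64 to 0.89, limma adjusted p = 0.823).

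**Figure D3:**
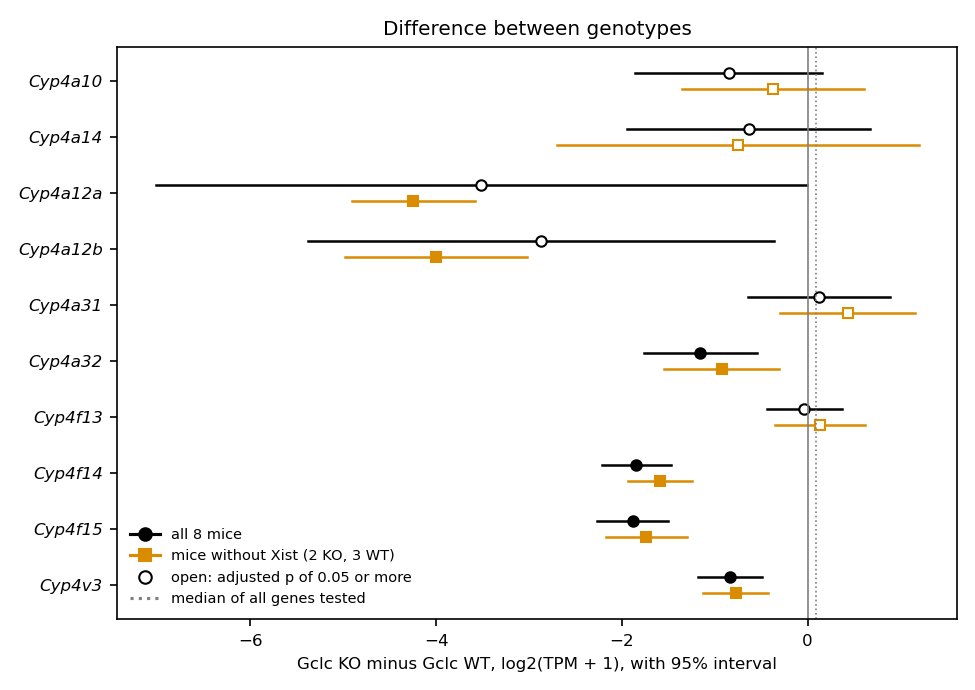
Difference between genotypes for each Cyp4 gene (Gclc KO minus Gclc WT, log2(TPM + 1), with 95% interval) over all 8 mice in black and over the 5 mice without Xist in orange, filled where the limma adjusted p is under 0.05. Cyp4a12a and Cyp4a12b have wide intervals over all mice and narrow ones without the Xist mice, while Cyp4f14 (-1.84 and -1.59), Cyp4f15 (-1.88 and -1.74) and Cyp4v3 (-0.84 and -0.78) change little.

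In Gclc KO livers the order of mean levels was Cyp4v3, Cyp4a10 and Cyp4a14 (208, 207 and 177 TPM), then Cyp4f13 and Cyp4f14 (45.4 and 43.2 TPM), Cyp4f15 (21.5 TPM), Cyp4a32 (14.1 TPM), Cyp4a31 (7.77 TPM), Cyp4a12a (4.90 TPM) and Cyp4a12b (1.39 TPM). In Gclc WT livers it was Cyp4v3, Cyp4a10 and Cyp4a14 (369, 352 and 299 TPM), then Cyp4f14 and Cyp4a12a (156 and 134 TPM), Cyp4f15 (81.9 TPM), Cyp4f13 (46.4 TPM), Cyp4a12b and Cyp4a32 (32.3 and 31.9 TPM) and Cyp4a31 (6.42 TPM). Neighbours in these orders overlapped between mice, except Cyp4a14 with Cyp4f13 and Cyp4f14 with Cyp4f15 in Gclc KO livers, and Cyp4f15 with Cyp4f13 and Cyp4a32 with Cyp4a31 in Gclc WT livers. Cyp4a12a took place 9 of 10 in Gclc KO livers and place 5 in Gclc WT livers.

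Summed over the 10 genes, transcripts came to 706, 619.8, 489 and 1108 TPM in Gclc KO mice 1 to 4, against 1121, 1685, 970.0 and 2258 TPM in Gclc WT mice 1 to 4. Gclc KO 4 reached the range of the Gclc WT mice, mostly through Cyp4a10 and Cyp4a14. The Cyp4a sum was 327, 317, 229 and 777 TPM in Gclc KO mice 1 to 4 and 523, 989, 376 and 1534 TPM in Gclc WT mice 1 to 4, with overlap through the same mouse. Cyp4a12a and Cyp4a12b made up 0.258 to 11.7 TPM of it in Gclc KO mice, 0.148 TPM in Gclc WT 3, and between 143 and 281 TPM in the other Gclc WT mice.

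**Figure D4:**
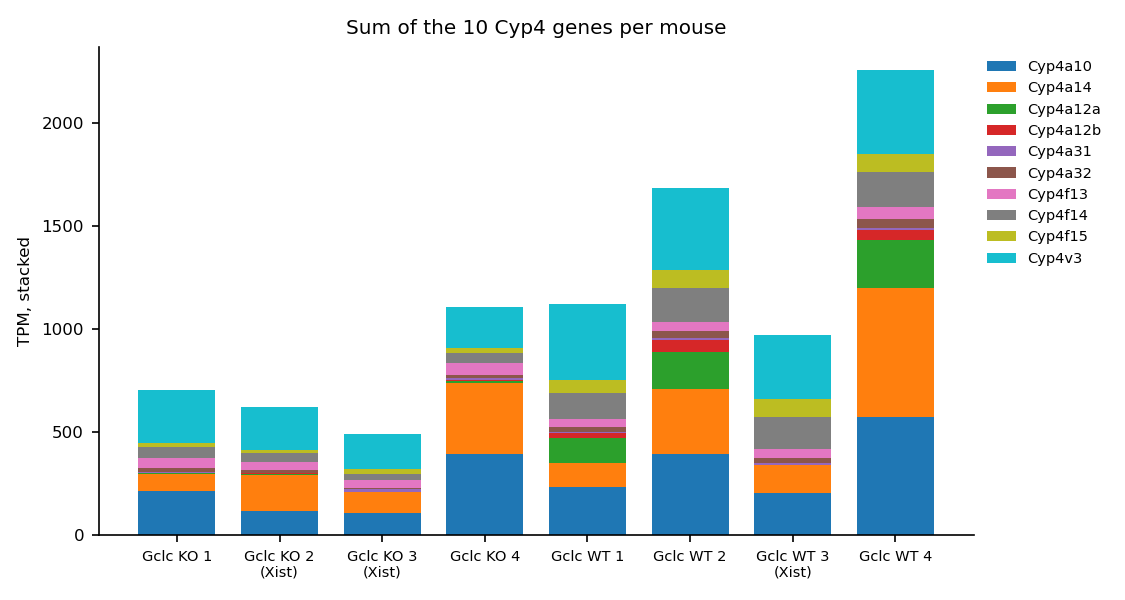
TPM of the 10 Cyp4 genes stacked for each mouse, Gclc KO 1 to 4 on the left and Gclc WT 1 to 4 on the right, with mice that have Xist marked. The sums run from 489 to 1108 TPM in Gclc KO and from 970.0 to 2258 TPM in Gclc WT mice, and the green and red blocks of Cyp4a12a and Cyp4a12b stand out in Gclc WT 1, 2 and 4.

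Other genes of the pathway were counted from lists chosen with results of these data known. Beside the counts of this and the following lists, 8.61% of the 11284 genes tested were lower and 12.8% higher. Of the electron donors, 2 of 4 were lower and 0 higher in Gclc KO livers (median log2 difference -0.46). Cyb5r3, the cytochrome b5 reductase, was at 148 ± 38.4 TPM in Gclc KO and 301 ± 33.6 TPM in Gclc WT livers (SD, n = 4 each, limma adjusted p = 0.00539), and the mitochondrial cytochrome b5 gene Cyb5b was lower as well. Por, the P450 reductase itself, was at 573 ± 36.3 TPM in Gclc KO and 513 ± 97.6 TPM in Gclc WT livers and was not called (limma adjusted p = 0.434), nor was the microsomal Cyb5a.

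Of the dehydrogenases that act after hydroxylation, 5 of 9 were lower and 1 higher (median log2 difference -0.91). The alcohol dehydrogenase Adh4, which oxidises omega-hydroxy fatty acids, was at 40.8 ± 10.8 TPM in Gclc KO and 167 ± 29.5 TPM in Gclc WT livers (limma adjusted p = 0.000464). Adh1, Aldh1a1, Aldh3a2 and Aldh9a1 were the other genes lower, and Aldh3b1 was higher, at 4.85 ± 0.594 TPM in Gclc KO and 1.68 ± 1.03 TPM in Gclc WT livers. Aldh3a2, the fatty aldehyde dehydrogenase of the endoplasmic reticulum, acts at the next step of the pathway.

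Of the peroxisomal genes that shorten dicarboxylic acids, 8 of 11 were lower and 0 higher (median log2 difference -1.12). Crot, which makes carnitine esters for export from the peroxisome, was at 119.5 ± 21.1 TPM in Gclc KO and 308 ± 58.5 TPM in Gclc WT livers. The thiolase gene Acaa1b was at 68.1 ± 49.5 TPM in Gclc KO and 697 ± 253 TPM in Gclc WT livers, the lowest Gclc WT value again being that of Gclc WT 3. Acaa1a, Acot4 and Acot8 were not called.

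Ppara, which encodes PPAR-alpha, was at 58.2, 35.6, 39.4 and 41.2 TPM in Gclc KO mice 1 to 4, against 86.2, 100.03, 92.0 and 104 TPM in Gclc WT mice 1 to 4 (log2 difference -1.14, SE 0.15, limma adjusted p = 0.00175) and was the 1 gene called of 10 for the receptor and its partners. Of 24 PPAR-alpha targets outside the family, 11 were lower and 2 higher (median log2 difference -0.54). Fabp1, the liver fatty acid binding protein, was at 584 ± 597 TPM in Gclc KO and 12421 ± 4828 TPM in Gclc WT livers, and Fgf21, a hormone of fasting, was higher, at 8.27 ± 3.83 TPM in Gclc KO and 0.232 ± 0.309 TPM in Gclc WT livers. Pdk4, which restrains glucose oxidation, was the other target called higher.

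Sex-biased genes outside the family were counted beside Cyp4a12a and Cyp4a12b, which did not pass the test over all 8 mice. Of 11 male-biased genes 9 were lower and 0 higher, and of 11 female-biased genes 0 were lower and 2 higher. Of all genes tested 8.61% were lower and 12.8% higher. Mup20, a male urinary protein, was at 120, 8.29, 8.80 and 49.5 TPM in Gclc KO mice 1 to 4, against 9864, 12665, 671 and 11269 TPM in Gclc WT mice 1 to 4. Cux2, a repressor known from female liver, was at 14.5, 17.1, 15.2 and 16.5 TPM in Gclc KO mice 1 to 4, against 0.0425, 0.05, 4.83 and 0.0675 TPM in Gclc WT mice 1 to 4 (log2 difference 3.38, SE 0.50, limma adjusted p = 0.00267). In both genes Gclc WT 3 lay between the other Gclc WT mice and the Gclc KO mice. Ghr, the growth hormone receptor, was at 132 ± 17.9 TPM in Gclc KO and 445 ± 34.1 TPM in Gclc WT livers (limma adjusted p = 0.000142). Cux2 and Ghr are from a list of 12 growth hormone and sex-bias regulators, of which 1 was higher, 2 were lower and 9 were not called.

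**Figure D5:**
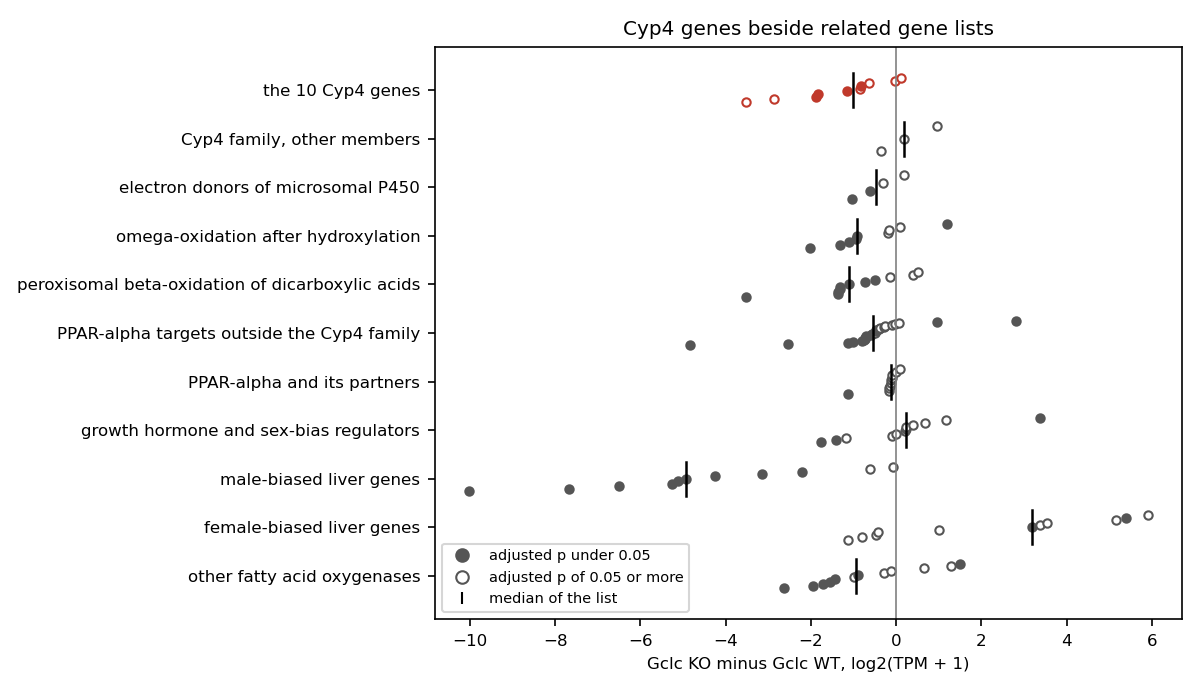
Difference between genotypes (Gclc KO minus Gclc WT, log2(TPM + 1)) for the 10 Cyp4 genes in red and the genes of related lists in grey, 1 point per gene, filled for a limma adjusted p under 0.05, with a bar at the median of each list. Medians lie at -0.46 for electron donors, -0.91 for dehydrogenases after hydroxylation, -1.12 for peroxisomal genes and -0.54 for PPAR-alpha targets, beside 0.09 for all genes tested.

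Other oxygenases of polyunsaturated fatty acids make epoxides and other products in place of omega-alcohols. In a list of them that also counts the hydrolase gene Ephx2, 6 of 12 genes were lower and 1, Cyp2c70, was higher (median log2 difference -0.94). Cyp2c29, an epoxygenase, was at 599 ± 145 TPM in Gclc KO and 2309 ± 577 TPM in Gclc WT livers, and Ephx2, the epoxide hydrolase that removes its products, was at 256 ± 55.2 TPM in Gclc KO and 695 ± 147 TPM in Gclc WT livers. Cyp2c70, best known for making muricholic acids, was higher, at 1392 ± 294 TPM in Gclc KO and 487 ± 69.7 TPM in Gclc WT livers. The 3 remaining Cyp4 genes that could be tested, Cyp4b1, Cyp4f16 and Cyp4f17, were not called in either direction, although Cyp4b1 did not overlap, at 9.31 ± 1.15 TPM in Gclc KO and 12.1 ± 0.877 TPM in Gclc WT livers (limma adjusted p = 0.0533).

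The genes most like 3 of the Cyp4 genes were ranked over the 8 mice by Pearson's r of log2(TPM + 1) among 5884 genes outside the family, as a description in which the mice share genotype, Xist status and library batches. For Cyp4f14 they were the desaturase gene Fads1 (r = 0.993), Pipox, a peroxisomal oxidase (0.993), and the transcription factor gene Nfix (0.992). For Cyp4a12a they were Uqcr10 (0.985), Grhpr (0.981) and Wdr45b (0.977), and for Cyp4a14 Rtfdc1 (0.945), Polr2c (0.938) and Lsm14b (0.928). Within the family, r over the same 8 mice was 0.974 between Cyp4a12a and Cyp4a12b, 0.965 between Cyp4f14 and Cyp4f15, 0.952 between Cyp4f14 and Cyp4v3, and 0.239 between Cyp4f14 and Cyp4f13.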

How the data were processed

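Liver RNA (PureLink kit) was sequenced from strand-specific mRNA libraries (Kapa kit). The authors deposited 1 table of TPM for 32 libraries, named as normalized counts, with totals of 999315 to 999534 per library, so this unit was assumed. The submitters' notes name bcl2fastq 2.2, while aligner, quantifier, build and annotation were not given in the sources used here. TPM keep no depth, so depth and counting error per library are unknown, and genes above 0 numbered 13280 to 14016 in batch 1 and 12341 to 13193 in batch 2. Of 20896 rows, 75 repeated a symbol with identical values and were left out.

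The 4 libraries per mouse were treated as technical repeats and averaged. Their titles give a batch number and a second number, called run here, and do not say what either stands for. The column headers also give each mouse a tag. Tags were 114, 122, 77 and 83 for Gclc KO 1 to 4, and 111, 124, 76 and 82 for Gclc WT 1 to 4. Tags of the same replicate number thus lie close together. The labels do not say whether such mice were paired or how the mice were kept. Values were taken as log2(TPM + 1), genes that averaged at least 1 TPM were kept, and Gclc KO was compared with Gclc WT in limma 3.58.1 under R 4.3.3 (mean-variance trend, two-sided, no covariates, Benjamini-Hochberg at 0.05). The script was tested on simulated data. A mouse with Xist of at least 1 TPM was called a mouse with Xist. Coding sequences were the longest open reading frames of GENCODE vM21 transcripts, aligned globally with Biopython 1.88, in place of a planned comparison of proteins. Promoters, gene order and chromosomes are from RefSeq GRCm38.p6.

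The Cyp4 genes and all lists were chosen with earlier results of these data known, and a few genes of the lists are not reported or counted here. Named genes are the 10 members, Gclc, Xist, up to 4 genes per list with the smallest adjusted p, up to 3 per cell type list with the highest level, and 3 genes most like each of Cyp4a14, Cyp4a12a and Cyp4f14. Other listed genes, neighbours on the chromosome and Ddx3y were named after their values were seen. In all 25 alternatives were run, covering the pseudocount, filter, scaling, limma options, the replicate block, tag cohort, each batch and each run by itself, Xist and each mouse left out.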

Additional observations from a re-analysis of the deposited data

Results flagged for a closer look

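Within a genotype, 13 of 100 groups of 4 mice examined (the 10 Cyp4 genes and the other named genes) had 1 mouse whose gap to the nearest other, divided by the range, was above Dixon's critical value, where chance flags about 1 in 20 independent groups. These groups share the same 8 mice and include sex-biased genes and genes picked by adjusted p. That rate therefore cannot be set against their count. Values here are log2(TPM + 1). Among the Cyp4 genes, 3 of 20 groups were picked out. Cyp4a12a was at 0.20 in Gclc WT 3, while the other Gclc WT mice were at 6.92 to 7.87. Cyp4f15 was at 4.06 in Gclc KO 2 and at 5.98 in Gclc WT 1, each the lowest of its genotype.

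Gclc WT 3 accounted for 7 of the 13. Besides Cyp4a12a these were Sult2a8 at 8.05, Mup20 at 9.39, Mgll at 6.25 and Cyp2e1 at 12.47, each lower than in the other Gclc WT mice, and Cux2 at 2.54 and Sult2a2 at 9.73, higher than in them (Sult2a2 was listed at 0 in the other Gclc WT mice). The others were Fgf21 at 1.84 and Hnf4a at 8.64 in Gclc KO 1, Rxrb at 4.41 in Gclc KO 4 and Bcl6 at 3.72 in Gclc WT 2. For no Cyp4 gene did a dependence of the genotype difference on Xist pass the interaction test. That test cannot decide the question for Cyp4a12a and Cyp4a12b.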

How the results depend on the processing

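Cyp4f14, Cyp4f15 and Cyp4v3 were lower and called in all 25 alternatives, with log2 differences of -1.94 to -1.59, -2.01 to -1.54 and -0.94 to -0.74 (limma adjusted p at most 0.00231, 0.0027 and 0.0265). Cyp4a32 was called in 23 of 25 (-1.31 to -0.80), Cyp4a12a and Cyp4a12b in 3 each (without Gclc WT 3, without the Xist mice and with the block), Cyp4a14 in 1 and Cyp4a10 in 0. Leaving out 1 mouse at a time gave 3 (without Gclc WT 2) to 6 (without Gclc WT 3) lower Cyp4 genes. Across all genes it gave 557 to 950 lower, against 972, and 698 to 1851 higher, against 1439. Fewest were called without Gclc WT 2, and the higher count was also down by over 1.5 times without Gclc KO 1 (890), Gclc KO 4 (857), Gclc WT 1 (942) or Gclc WT 4 (814), and the lower count without Gclc KO 3 (638). With 1 mouse left out, the lists of the pathway held 14 (without Gclc WT 2) to 28 lower genes, against 27. A filter at 10 TPM left them 0 higher genes, against 3. The 3 genes, Aldh3b1, Fgf21 and Pdk4, averaged under 10 TPM in both genotypes, so that filter left them out of the test. The cause of the other changes was not tested.

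Mice with the same replicate number did not deviate together in every pair (r = 0.0623, -0.120, 0.345 and 0.260), so the numbers were not taken as pairs. Number 2 joined a Gclc KO mouse with Xist and a Gclc WT mouse without it, so these values cannot decide whether mice were paired. With the replicate number as a block, 7 Cyp4 genes were lower, against 4, adding Cyp4a14, Cyp4a12a and Cyp4a12b (limma adjusted p = 0.0249, 0.0208 and 0.0316). Not every mouse correlated best with its own number.

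Signs turned only for 2 uncalled genes. Cyp4a31 was at -0.061 without Gclc KO 3, -0.094 without Gclc KO 4 and -0.023 without Gclc WT 1 (0.46 at most, without Gclc KO 2). Cyp4f13 was at 0.012 in run 1 alone, 0.054 with Xist as a covariate, 0.13 without the Xist mice, 0.030 without Gclc KO 2, 0.048 without Gclc KO 3 and 0.085 without Gclc WT 4 (-0.17 at least, without Gclc KO 4). Scaling moved the median of all genes by at most 0.08, but of all calls 59.7% were higher as deposited, 46.9% after trimmed-mean scaling, 47.5% after median-of-ratios scaling and 62.7% with the total without the 50 most abundant genes.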
